A study of Sus scrofa with 8 samples.

Results

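The suppressors of cytokine signalling are the genes CISH and SOCS1 to SOCS7, which code for intracellular inhibitors that cytokines switch on against their own signal. Their rows were picked by gene symbol, with no threshold on a measured value, though earlier results of these data were known, and 7 of the 8 had a row of their own among 31907 genes counted in pig skin. Each protein carries an SH2 domain, which binds phosphorylated tyrosines on receptors or kinases, and a SOCS box, which recruits elongins B and C and cullin 5 so that the bound protein is marked with ubiquitin. In mouse and human cells CISH is a classical target of STAT5, the factor activated by IL-15 through JAK1 and JAK3, and SOCS3 is a classical target of STAT3, the factor activated by IL-6 and its relatives through gp130. Skin holds lymphocytes, which carry the IL-15 receptor, among many more keratinocytes, fibroblasts and endothelial cells, which answer to gp130 cytokines and to growth factors.

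The study sought genes that IL-15 raises in skin as readouts for a topical JAK1 and JAK3 inhibitor. Ribosome-depleted total RNA was sequenced from 8 whole skin biopsies of 2 wild-type Yorkshire pigs, numbered 13 and 14. The injected group held 4 biopsies, injected in the dermis with IL-15 (200 ng, 100 µl saline) and collected 3 h later, from sites 12c and 12e of pig 13 and sites 12c and 12d of pig 14. The control group held 4 biopsies that received no injection, from sites 6b and 7b of pig 13 and sites 6b and 7e of pig 14. No saline-injected site is among the samples and the injected sites were all numbered 12 on the skin grid, so IL-15, the needle and the place on the skin cannot be told apart. The 4 biopsies of a group come from only 2 animals, so each p-value reflects how far sites of an animal differ and says little about other pigs. Libraries held 28471089 to 36070107 counts, and summed markers of keratinocytes (16982 to 46401 CPM) and fibroblasts (20864 to 197095 CPM) were high in every biopsy, as the label skin implies. Levels are given as CPM, the counts scaled to the size of each library, differences as log2 fold changes with their standard error (SE), and a gene was called at an adjusted p under 0.05 over all genes tested.

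SOCS3 was the member with the widest difference between injected and control sites, and the other 6 measured members stayed close to their control level. SOCS3, which binds gp130 and blocks JAK1, JAK2 and TYK2, was 3.63-fold higher at injected sites, with 41.9 ± 4.26 against 12.1 ± 11.5 CPM (SD, n = 4). CISH was 1.17-fold higher and SOCS1 0.978-fold of control. None of the 7 members was called by edgeR over all 19862 genes tested, where 7 genes were called, all higher (0.0352%), and DESeq2 called none of the members and 58 of 18706 genes (0.31%). At an unadjusted p under 0.05 edgeR had 2 of the 7, SOCS3 and CISH, both higher, beside 2.39% of all genes higher and 2.15% lower. In tissue RNA, a change in the number of cells of a type and a change in RNA per cell cannot be told apart.

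**Figure D1:**
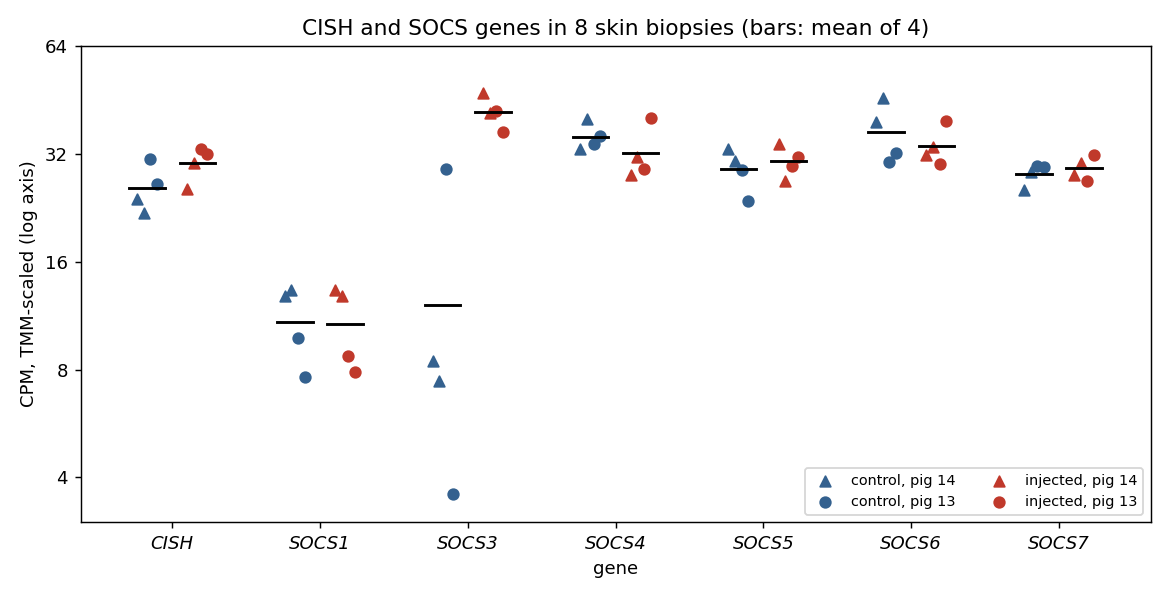
Level of each gene in every biopsy in CPM (log axis), with circles for pig 13, triangles for pig 14, blue for control and red for injected sites, and bars at the mean of 4 biopsies. SOCS3 lies between 36.8 and 47.2 CPM at injected sites, above each control, of which 1 pig 13 site lies at 29.0 CPM.

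SOCS3 (ENSSSCG00000036956) spans bases 3643929 to 3647012 of chromosome 12 in Sscrofa11.1, in 2 exons. The annotated span of TK1 runs across it, but 0 exon bases are shared. At injected sites SOCS3 was at 36.8 and 42.1 CPM in sites 12c and 12e of pig 13 and at 41.6 and 47.2 CPM in sites 12c and 12d of pig 14. At control sites it was at 3.59 CPM in site 6b and 29.0 CPM in site 7b of pig 13, and at 7.44 CPM in site 6b and 8.43 CPM in site 7e of pig 14. Every injected biopsy was thus above every control biopsy, and the controls spread far more than the injected sites. How many of all genes were separated in this way was not counted. The highest control was 8.07 times the lowest, against 1.28 times among injected sites. The pig 13 control from site 7b was the only control near the injected range. These levels rested on 1131 to 1387 counts per injected biopsy and on 119, 195, 239 and 1063 counts in the controls.

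The fitted difference of SOCS3 over both pigs was a log2 fold change of 1.86 ± 0.63 (SE, adjusted p = 0.964, edgeR), with a 95% confidence interval from 1.26-fold to 10.4-fold. Within pig 14 alone, where the 2 controls differed by 1.13 times, SOCS3 was 5.62-fold higher at injected sites (log2 fold change 2.49 ± 0.14, adjusted p = 0.0026, edgeR). It had the smallest p of all 19910 genes tested in that animal, of which 17 were called (0.0854%). Within pig 13 alone, where the 2 controls differed by 8.07 times, the log2 fold change was 1.28 ± 1.06 (adjusted p = 0.969, edgeR), while 30 of 20303 genes were called (0.148%). The test of the difference between the pigs gave a log2 value of 1.21 ± 1.23 (adjusted p = 0.83, edgeR) for pig 14 over pig 13. The response of SOCS3 was therefore not shown to differ between the animals.

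Site 7b of pig 13 decided whether SOCS3 was called. Without that biopsy its log2 fold change was 2.83 ± 0.20 (adjusted p = 0.001, edgeR), ranking 2 by p among 20223 genes, of which 19 were called (0.094%). Leaving out any other single biopsy left values between 1.58 and 2.04 and no call. Without the other pig 13 control, from site 6b, the log2 fold change was 1.58 ± 0.45 (adjusted p = 0.517, edgeR), and SOCS3 then differed between the pigs, by 2.04 on the log2 scale (adjusted p = 0.0051, edgeR). In that fit 1.55% of genes were called and the high control alone stood for the uninjected skin of pig 13. Without site 7b the same difference turned to -0.97 ± 0.24 (adjusted p = 0.228, edgeR).

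Markers of some cell types also set the biopsy from site 7b apart. Keratinocyte markers (12 of 14 measured) summed to 46401 CPM in site 7b, while the remaining controls held 16982 to 25103 CPM and the injected sites 18635 to 30676 CPM. The 11 fibroblast markers summed to 20864 CPM, below the 79385 to 197095 CPM of the remaining controls and the 79583 to 194129 CPM of injected sites. Neutrophil markers (10 of 11 measured) summed to 416 CPM, above 61.8 to 107 CPM in those controls and 55.1 to 152 CPM at injected sites. Endothelial markers (13 of 13) summed to 1052 CPM, with 777 to 995 CPM in those controls and 876 to 1222 CPM at injected sites, and adipocyte markers (10 of 11) to 1283 CPM, with 1702 to 5542 and 1880 to 4754 CPM. No measured marker of these 5 lists was at 0 in all biopsies. In site 7b T and NK lymphocyte markers summed to 45.9 CPM and monocyte, macrophage and dendritic markers to 518 CPM. Both sums lay inside the range of the remaining controls, 34.2 to 121 CPM and 314 to 804 CPM. The part of this makeup in the SOCS3 level of that biopsy was not tested.

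**Figure D2:**
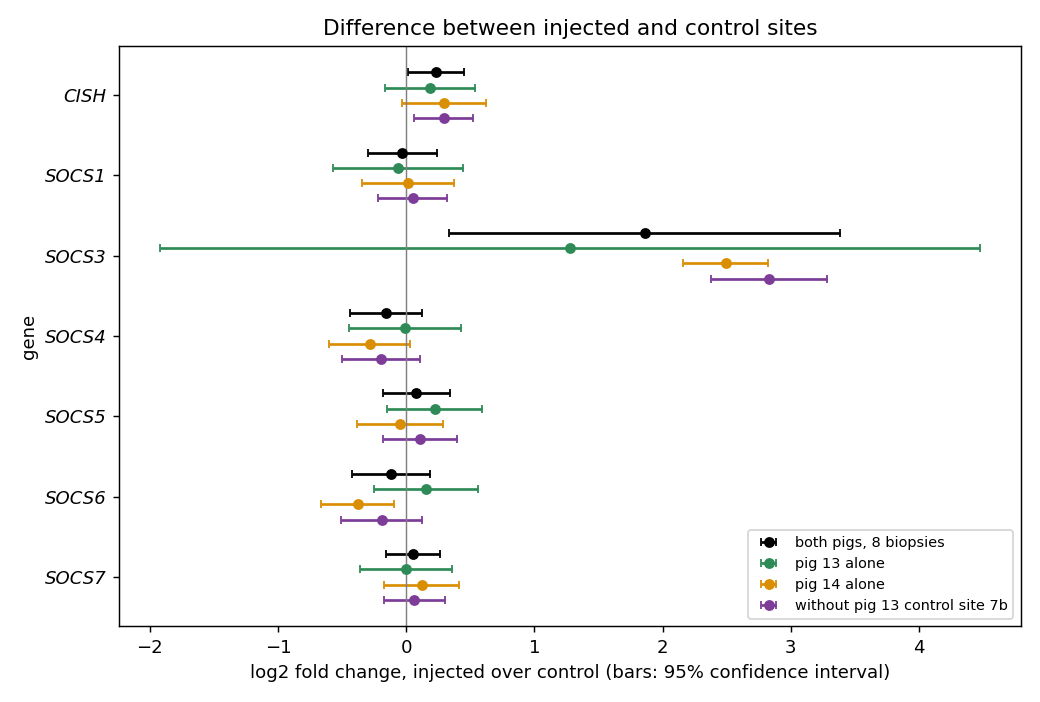
Log2 fold change of injected over control sites for each gene, with 95% confidence intervals, over both pigs (black), in pig 13 (green), in pig 14 (orange) and without the pig 13 control from site 7b (purple). The SOCS3 interval runs from 0.34 to 3.38 over both pigs and from 2.16 to 2.82 in pig 14, while the other genes lie near 0.

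CISH, the first member of the family to be described, competes with STAT5 for docking sites on cytokine receptors. Its gene (ENSSSCG00000040581) lies at 33084873 to 33090615 on the minus strand of chromosome 13, in 3 exons. Injected sites held 31.9 and 32.9 CPM of CISH in sites 12c and 12e of pig 13 and 30.2 and 25.6 CPM in sites 12c and 12d of pig 14. Control sites held 26.3 CPM in site 6b and 30.9 CPM in site 7b of pig 13, and 21.8 CPM in site 6b and 24.0 CPM in site 7e of pig 14. Within each pig both injected sites were above both control sites, although the groups overlapped when the pigs were pooled. Group levels were 30.2 ± 3.25 and 25.8 ± 3.91 CPM (SD, n = 4).

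The log2 fold change of CISH was 0.23 ± 0.10 over both pigs (adjusted p = 0.964, edgeR), with a 95% interval from 1.01-fold to 1.37-fold. It was 0.18 ± 0.15 in pig 13 and 0.29 ± 0.14 in pig 14. Across the 8 fits that each left out 1 biopsy it lay between 0.18 and 0.29 and was never called. CISH was the only member other than SOCS3 with injected sites above control sites in both animals. The share of all tested genes with that order was not counted, so no result about CISH is drawn from it.

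SOCS1 and SOCS3 are the members with a kinase inhibitory region, with which they block JAK kinases directly, and SOCS1 is best known as the brake on interferon gamma and gamma chain cytokines. SOCS1 (ENSSSCG00000027855) lies at 31881225 to 31884969 on the plus strand of chromosome 3, in 2 exons. At injected sites it was at 7.87 and 8.73 CPM in sites 12c and 12e of pig 13 and at 12.9 and 13.4 CPM in sites 12c and 12d of pig 14. At control sites it was at 7.64 CPM in site 6b and 9.77 CPM in site 7b of pig 13, and at 13.4 CPM in site 6b and 12.8 CPM in site 7e of pig 14. Injected and control values interleaved within each pig, while every pig 14 value was above every pig 13 value. The log2 fold change of injected over control sites was -0.03 ± 0.12 (adjusted p = 0.984, edgeR), with a 95% interval from 0.811-fold to 1.18-fold.

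SOCS1 was the member that differed between the animals. It was 1.54-fold higher in pig 14 than in pig 13 with treatment in the model (log2 fold change 0.62 ± 0.12, adjusted p = 0.0105, edgeR), and in each of the 8 fits without 1 biopsy it stayed called, with values from 0.56 to 0.70. DESeq2 called it as well (adjusted p = 0.00021), among 15.8% of all genes. The comparison of the pigs called 2133 of 19862 genes (10.7%), 6.39% higher and 4.34% lower in pig 14, so 1 of 7 members is near that background. In the fits without 1 biopsy 1142 to 2240 genes were called. Several gene lists also differed between the pigs, among them T and NK lymphocyte markers (21 of 22 measured). They summed to 34.2 to 50.2 CPM in pig 13 and 68.8 to 121 CPM in pig 14, and 13 of 19 tested were called higher in pig 14 and none lower. Monocyte, macrophage and dendritic markers summed to 314 to 518 CPM and 503 to 804 CPM, with 5 of 13 called higher, none lower and LYZ at 0 in all biopsies. The latter sums overlapped between the pigs. Fibroblast markers summed to 20864 to 112257 CPM in pig 13 and 139541 to 197095 CPM in pig 14. Keratinocyte markers went the other way, with 25103 to 46401 CPM in pig 13 and 16982 to 24645 CPM in pig 14. Sums of JAK and STAT genes and of receptor chains for gp130 and gamma chain ligands were higher in every pig 14 biopsy. The part of any of these lists in the SOCS1 difference was not tested. Animal, handling and skin makeup cannot be told apart in 2 pigs.

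**Figure D3:**
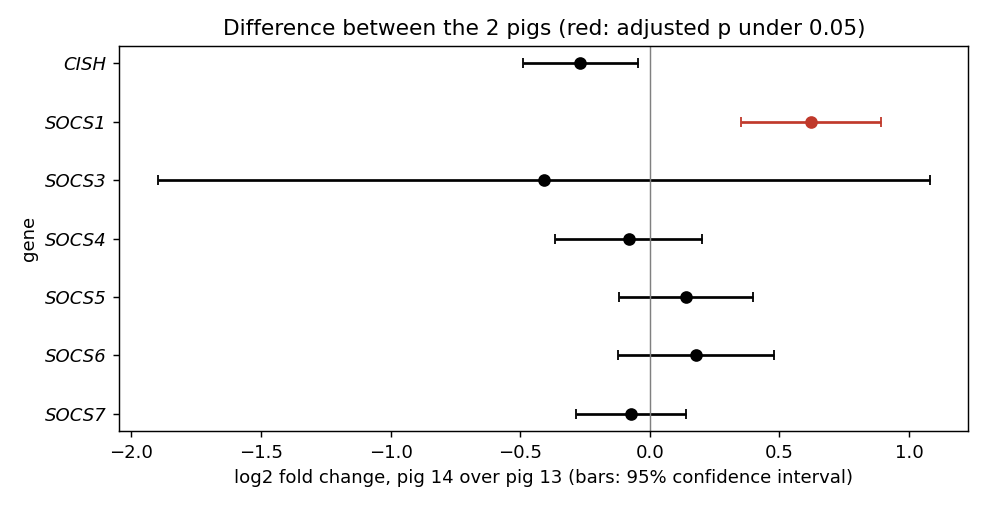
Log2 fold change of pig 14 over pig 13 for each gene with its 95% confidence interval, from the fit with treatment in the model. SOCS1 (red), at 0.62, is the only one called, and the SOCS3 interval, from -1.90 to 1.08, is the widest.

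No other member was called between the pigs. CISH was lower in pig 14 by a log2 value of -0.27 ± 0.10 (adjusted p = 0.114, edgeR), the reverse of SOCS1. SOCS3 had -0.41 ± 0.61 (adjusted p = 0.732, edgeR), which became 0.49 without the control from site 7b. SOCS4 to SOCS7 lay between -0.08 and 0.18.

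SOCS2, a brake on growth hormone signalling, had no row of its own. The row with the symbol CRADD, at 89242169 to 89586239 of chromosome 5, is described as SOCS2 in the deposited table and had 20 exons. Of these, 3 exons with 1201 of the 9959 exon bases fell inside the SOCS2 gene of RefSeq on Sscrofa11.1 (89581081 to 89587424), and 13 fell inside RefSeq's CRADD (89257603 to 89480414). Reads of SOCS2 and of CRADD, an adaptor of caspase activation, cannot be told apart in that row. The CRADD row had 21.8 to 31.2 CPM at injected and 23.9 to 28.1 CPM at control sites (log2 fold change 0.08 ± 0.10, adjusted p = 0.966, edgeR), and no value is given for SOCS2.

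The remaining members are less tied to JAK signalling. SOCS4 and SOCS5 have long amino-terminal regions and have been linked in human and mouse cells to turnover of the EGF receptor. SOCS4 (ENSSSCG00000032332, chromosome 1, 184379086 to 184398902) was at 40.2 and 29.0 CPM in injected sites 12c and 12e of pig 13 and at 31.4 and 28.0 CPM in 12c and 12d of pig 14. Its control values were 36.0 and 34.1 CPM in sites 6b and 7b of pig 13 and 40.0 and 32.9 CPM in 6b and 7e of pig 14. Both injected sites were below both controls in pig 14, and the groups overlapped in pig 13. With 32.2 ± 5.58 CPM at injected and 35.7 ± 3.11 CPM at control sites (SD, n = 4), the log2 fold change was -0.16 ± 0.13.

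SOCS5 (ENSSSCG00000008437, chromosome 3, 93783964 to 93925865) was at 31.3 and 29.6 CPM in injected sites 12c and 12e of pig 13 and at 26.8 and 34.2 CPM in 12c and 12d of pig 14. Its control values were 23.6 and 28.8 CPM in sites 6b and 7b of pig 13 and 30.6 and 32.9 CPM in 6b and 7e of pig 14. Both injected sites were above both controls in pig 13, and the groups overlapped in pig 14. With 30.5 ± 3.09 and 29.0 ± 3.97 CPM, the log2 fold change was 0.08 ± 0.12.

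SOCS6 and SOCS7 bind insulin receptor substrates in human and mouse cells. SOCS6 (ENSSSCG00000032214, chromosome 1, 152593649 to 152636651) was at 33.6 ± 4.13 CPM at injected and 36.9 ± 7.13 CPM at control sites (SD, n = 4), a log2 fold change of -0.12 ± 0.14. SOCS7 (ENSSSCG00000018057, chromosome 12, 23688699 to 23723377) was at 31.8 and 26.8 CPM in injected sites 12c and 12e of pig 13 and at 30.1 and 28.0 CPM in 12c and 12d of pig 14. Its control values were 29.4 and 29.5 CPM in sites 6b and 7b of pig 13 and 28.5 and 25.4 CPM in 6b and 7e of pig 14. The coefficient of variation of SOCS7 was the lowest of the 7 members in each group, and its groups overlapped in both pigs. With 29.2 ± 2.21 and 28.2 ± 1.93 CPM its log2 fold change was 0.05 ± 0.10. Adjusted p-values of SOCS4 to SOCS7 in edgeR ran from 0.964 to 0.973. Over CISH, SOCS1 and SOCS4 to SOCS7 the 95% intervals ran from 0.739-fold to 1.37-fold, so larger changes lay outside these intervals.

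Of the 7 members, SOCS6 had the smallest p for a difference in response between the animals. In pig 14 it was at 31.8 and 33.4 CPM at injected sites and at 39.2 and 45.9 CPM at control sites, so both injected sites were lower. In pig 13 it was at 29.9 and 39.4 CPM at injected sites and at 30.4 and 32.1 CPM at control sites, which overlapped. The log2 fold change was -0.38 ± 0.12 in pig 14 (adjusted p = 0.485, edgeR) and 0.16 ± 0.17 in pig 13 (adjusted p = 0.984, edgeR). The test of the difference between the pigs gave -0.54 ± 0.22, at an unadjusted p of 0.0348 and an adjusted p of 0.569 (edgeR), which did not pass. No gene passed that test in edgeR, with 757 (3.81%) higher and 876 (4.41%) lower in pig 14 at an unadjusted p under 0.05, while DESeq2 called 89 of 14471 genes (0.615%) and none of the members.

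Per length of transcript, the order of the family turned over at its top. Levels between genes are compared as RPKM, the scaled CPM per kilobase of exon. CISH was the highest member in each of the 4 controls, at 11.5 ± 1.74 RPKM (SD, n = 4). SOCS3 was the lowest member in 3 of the 4 controls, at 1.42, 2.94 and 3.34 RPKM, and ranked 2 in the control from site 7b, at 11.5 RPKM. At injected sites SOCS3 was the highest member in 4 of 4 biopsies, at 16.6 ± 1.68 RPKM, followed by CISH at 13.4 ± 1.45 RPKM. Their ranges at injected sites overlapped slightly, with 14.5 to 18.7 RPKM for SOCS3 and 11.4 to 14.7 RPKM for CISH.

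The other 5 members formed a group of lower level that overlapped at neighbouring places in the order. At control sites SOCS6 had 5.76 ± 1.11, SOCS5 5.67 ± 0.775, SOCS7 4.53 ± 0.311, SOCS4 4.29 ± 0.373 and SOCS1 3.42 ± 0.841 RPKM (SD, n = 4). At injected sites SOCS5 had 5.96 ± 0.604, SOCS6 5.24 ± 0.645, SOCS7 4.69 ± 0.355, SOCS4 3.86 ± 0.67 and SOCS1 3.36 ± 0.881 RPKM. The ranges over 4 biopsies of neighbours in these orders overlapped. The means differed by more than either SD between SOCS5 and SOCS7 and between SOCS4 and SOCS1 at control sites, and between SOCS5 and SOCS6 and between SOCS7 and SOCS4 at injected sites. Summed over the 7 members, the level was 52.3 to 53.7 RPKM at injected sites and 34.2 to 47.5 RPKM at control sites. SOCS3 made up 27.2% to 34.7% of that sum at injected sites. At control sites it made up 4.16% in site 6b and 24.1% in site 7b of pig 13, and 7.48% in site 6b and 8.64% in site 7e of pig 14.

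**Figure D4:**
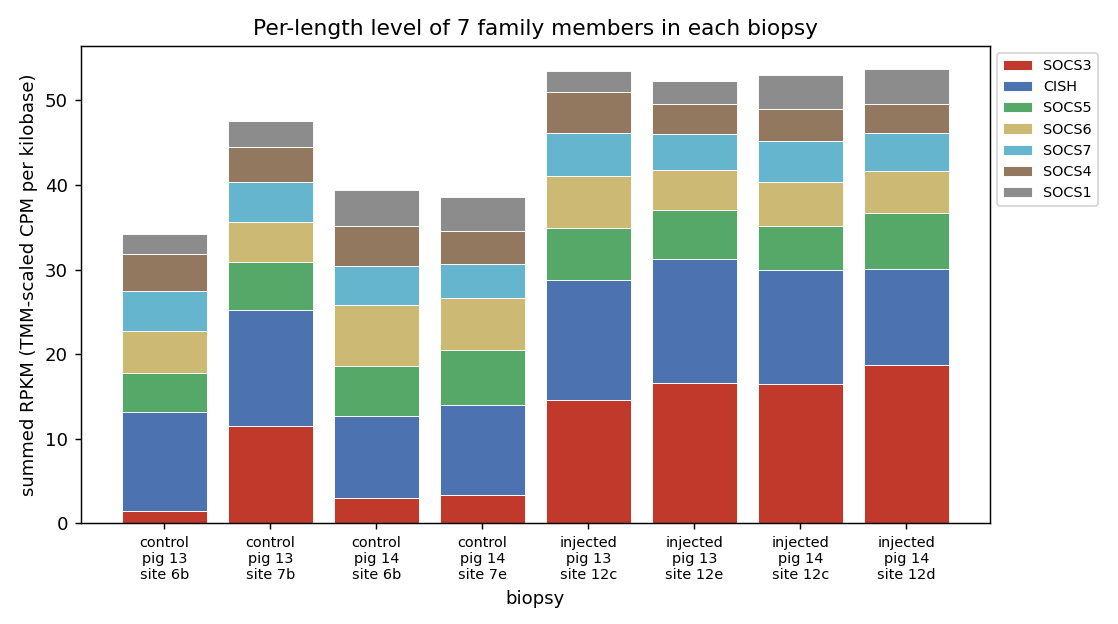
Summed RPKM of the 7 measured members in each biopsy, stacked by gene, with SOCS3 at the bottom. SOCS3 takes 27.2% to 34.7% of the sum at injected sites, and 24.1% in site 7b of pig 13, where the other controls have 4.16% to 8.64%.

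Among themselves the members differed in pattern mainly through SOCS3. As a measure of likeness, log2 CPM was centred on each gene's mean and the root mean square difference taken over the 8 biopsies, as a description with no test. SOCS4 and SOCS6 were the closest pair, at 0.15. SOCS3 was 1.22 from CISH, its nearest member, and 1.44 from SOCS4, its farthest. Among pairs without SOCS3 the farthest were CISH and SOCS1, at 0.48, which ran in opposite directions between the pigs.

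The genes closest to SOCS3 among 13577 with a symbol and a mean of at least 1 CPM were RND1, ADAMTS4, SELP, FOSB and ICAM1. RND1 was at 0.40, with 6.47 to 12.8 CPM at injected sites, 7.67 CPM in the control from site 7b and 0.966 to 1.26 CPM in the other controls. ADAMTS4, a protease that cleaves aggrecan, was at 0.47, with 36.6 to 63.5 CPM at injected sites, 26.2 CPM in the control from site 7b and 4.23 to 8.36 CPM in the other controls. These genes were chosen for likeness to SOCS3 over the same 8 biopsies. A raised control at site 7b and injected values above the controls thus follow from the choice. Neither is a separate result. SELP, the P-selectin of endothelium and platelets, was at 0.65 with 4.04 CPM in that control, inside its injected range of 2.76 to 4.50 CPM. FOSB, an AP-1 subunit, was at 0.66 and ICAM1, an adhesion molecule for leukocytes, at 0.67. For both, as for ADAMTS4, the injected sites were above all controls. ICAM1 was at 46.7 CPM in the control from site 7b and at 19.2 to 25.1 CPM in the other controls. Its injected sites were at 48.3 to 76.2 CPM. None of the 5 was called by edgeR over both pigs, with adjusted p from 0.207 to 0.964.

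**Figure D5:**
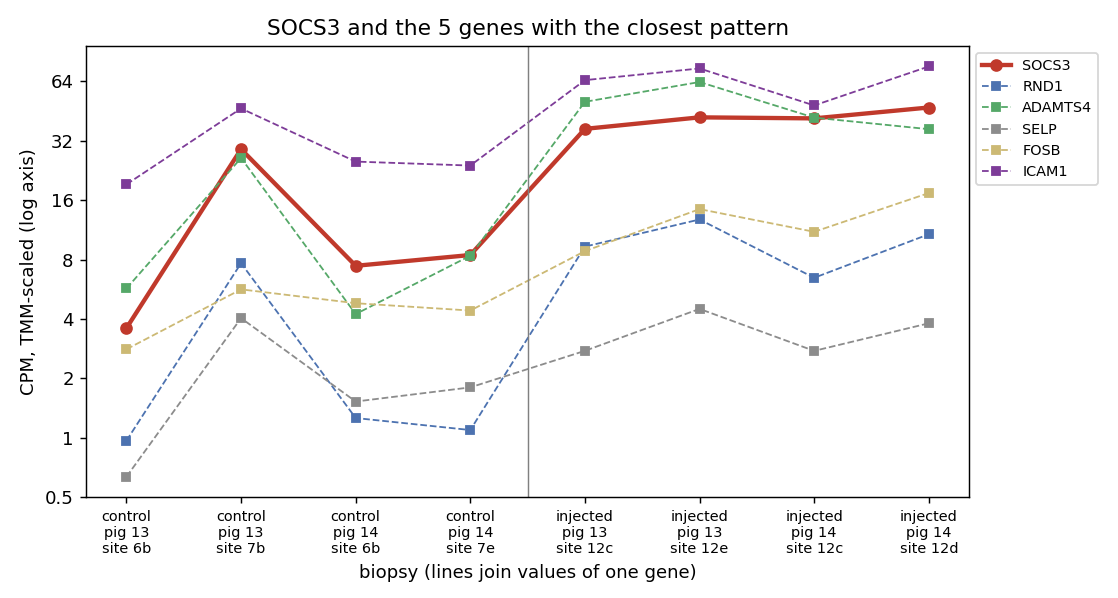
CPM (log axis) of SOCS3 and of the 5 genes with the closest pattern in each biopsy, control sites on the left and injected sites on the right, lines joining the values of a gene. SOCS3, RND1, ADAMTS4, SELP and ICAM1 are high at injected sites and in the pig 13 control from site 7b. There they reach 29.0, 7.67, 26.2, 4.04 and 46.7 CPM.

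The genes closest to CISH were GCH1, TSEN54, NFKBIB, ZNF217 and TMEM185B, at 0.054 to 0.066. GCH1 makes the cofactor tetrahydrobiopterin and NFKBIB holds NF-kB in the cytoplasm. Like CISH they varied little, and their log2 fold changes ran from 0.13 to 0.24, each with an adjusted p of 0.964 in edgeR. In these genes, as in CISH, the injected range and the control range overlapped. All were picked for likeness to CISH over the same biopsies. Their small spread, their fold changes near that of CISH and the overlap thus follow from the choice. None of these features is a separate result.

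Genes that act with the family were read from lists of the pathway, as counts and medians beside the median of all 19862 tested genes, a log2 fold change of -0.01. Of 11 ligands of gp130 or the gamma chain with enough counts, none was called by edgeR and the median was 0.16. IL6, the cytokine best known for inducing SOCS3, was at 8.01 ± 4.62 CPM at injected and 1.11 ± 1.42 CPM at control sites (SD, n = 4), a log2 fold change of 3.00 ± 0.61 (adjusted p = 0.681, edgeR). Its injected range, 4.30 to 14.5 CPM, was above its control range, 0.21 to 3.22 CPM. The highest control was again the pig 13 site 7b. The control levels were low, and how many of all genes were separated in this way was not counted. DESeq2 called IL6 (adjusted p = 0.0067), and so did edgeR without that biopsy (log2 fold change 4.09, adjusted p = 0.0059). TSLP had -0.87 ± 0.39 and IL11 -0.78 ± 0.56, both at under 1 CPM.

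Over all biopsies the medians of receptor chains and kinases were small, though single receptors differed more. Of 17 chains for gp130 and gamma chain ligands none was called by edgeR, with a median of 0.07 (0.09 without site 7b). OSMR, the oncostatin M receptor, had the smallest p (0.49 ± 0.23, and 0.78 without site 7b). IL27RA and IL9R followed, each at 0.18 ± 0.14. Without site 7b edgeR called 1 of the 17 chains, IL4R (0.71 ± 0.10, adjusted p = 0.0416), which is named for that call. Of 19 other cytokine receptors none was called with or without site 7b, and the median was 0.05 (0.16 without site 7b). IFNAR2 of the interferon receptor had 0.58 ± 0.25, KIT -0.20 ± 0.12 and IL10RB 0.24 ± 0.17. Without site 7b these 3 had 0.88, -0.11 and 0.44. Of 11 JAK and STAT genes none was called, with a median of 0.03 (0.06 without site 7b), and STAT6 (0.17 ± 0.08), STAT5A (0.12 ± 0.10) and TYK2 (-0.08 ± 0.10) had the smallest p. Of these 3 lists, 1 gene was under an unadjusted p of 0.05, and DESeq2 called none.

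The ubiquitin ligase subunits that the SOCS box recruits also had no call. Their median over 10 genes was -0.11 (-0.05 without site 7b), and CUL2 (-0.18 ± 0.09), the scaffold CUL5 (-0.19 ± 0.13) and the adaptor ELOC (-0.13 ± 0.11) had the smallest p. None was under an unadjusted p of 0.05 in edgeR and DESeq2 called none.

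Other inhibitors of JAK-STAT signalling, such as PIAS proteins and phosphatases, had a median of 0.06 over 16 genes and no call in edgeR. DUSP5 stands in this list although it is a nuclear phosphatase of ERK, and it is also a STAT5 response gene. It was at 66.0 ± 12.7 CPM at injected and 47.2 ± 13.7 CPM at control sites (SD, n = 4). Its log2 fold change was 0.51 ± 0.11 (adjusted p = 0.543, edgeR), DESeq2 called it (adjusted p = 0.0371), and it was at its lowest, 34.3 CPM, in the control from site 7b where SOCS3 was highest. BCL6 had 0.20 ± 0.10 and the interferon-induced USP18 0.38 ± 0.19.

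Response genes of STAT3 and STAT5 had mostly positive values, and edgeR called none over both pigs. Of 17 STAT3 response genes 14 had positive values, where 48.2% of all tested genes did, with a median of 0.29. Of the 17, 5 had an unadjusted p under 0.05 in edgeR, beside 2.39% of all genes higher and 2.15% lower, and none had a call in DESeq2. MYC had 0.42 ± 0.11, the AP-1 subunit JUNB 0.47 ± 0.13 and the cyclin CCND1 0.34 ± 0.10. Without site 7b, where 0.094% of all genes were called, edgeR called 4 of the 17, which are named for that call, BCL3 (0.87 ± 0.13, adjusted p = 0.0421), FOS (1.19 ± 0.16, adjusted p = 0.0263), SBNO2 (0.68 ± 0.10, adjusted p = 0.0416) and ZC3H12A (0.94 ± 0.13, adjusted p = 0.0327). Of 14 STAT5 response genes 10 had positive values, with a median of 0.12, 3 had an unadjusted p under 0.05, none was called by edgeR with or without that biopsy, and DESeq2 called 1, DUSP5. TNFRSF18, a receptor on activated T cells, had 0.53 ± 0.17. MYC stands in both lists. DUSP5 also stands among the other inhibitors, so its DESeq2 call is the same result in both places.

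Cell type markers at injected and control sites were compared in the same way, and edgeR called none of them, with 8 of 87 under an unadjusted p of 0.05, beside 2.39% of all genes higher and 2.15% lower, and 1 of 87 called by DESeq2, beside 0.31% of all genes. T and NK lymphocyte markers had a median of -0.06 over 19 genes (0.02 without site 7b). They summed to 45.9 to 116 CPM at injected and 34.2 to 121 CPM at control sites, with CD5 at -0.54 ± 0.28, CD247 at 0.44 ± 0.23 and CD27 at 0.23 ± 0.14. Monocyte, macrophage and dendritic markers had a median of 0.03 over 13 genes (0.19 without site 7b), of which 8 had positive values. CD86 was at -0.28 ± 0.23 (-0.02 without site 7b), CD207 at 0.18 ± 0.22 and AIF1 at 0.14 ± 0.20. Endothelial markers had a median of 0.10 over 13 (0.18 without site 7b), with ACKR1, a chemokine-binding protein of venules, at 0.56 ± 0.09 (adjusted p = 0.173, edgeR; called by DESeq2 with adjusted p = 0.00039), CLDN5 at 0.62 ± 0.15 and ESAM at 0.35 ± 0.12. Fibroblast markers had a median of 0.17 over 11, and of -0.00037 without site 7b. Among them THY1 was at 0.39 ± 0.18, FBLN1 at 0.17 ± 0.09 and DPT at -0.29 ± 0.18. Adipocyte markers had a median of 0.67 over 10 (0.34 without site 7b). PPARG was at 0.90 ± 0.60, CIDEC at 1.05 ± 0.82 and FASN at 0.42 ± 0.37. Keratinocyte markers had a median of -0.37 over 12 (-0.16 without site 7b), with 4 genes under an unadjusted p of 0.05 in edgeR. KLK5 was at -0.42 ± 0.13, CDSN at -0.53 ± 0.18 and DSC1 at -0.48 ± 0.20, while 5 of the 12 had positive values. Neutrophil markers had a median of -0.66 over 9, and of -0.09 without the control from site 7b, where S100A8 reached 93.8 CPM. MMP25 was at -0.66 ± 0.30, CXCR2 at -0.50 ± 0.31 and S100A8 at -1.12 ± 0.73. The part of these shifts in the SOCS3 and CISH values was not tested.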

How the data were processed

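Per the submitters' processing notes, the tools were bcl2fastq, STAR 2.5.1a and featureCounts 1.4.6-p5 of Subread, with the build Sscrofa11.1. The strand setting of the counting was not given in the sources used here, and reads of antisense or overlapping genes cannot be told apart. The deposited table of 8 biopsies holds whole-number counts of each Ensembl gene, per the file headers, and so does a file of each biopsy. The single files also hold CPM, computed by the authors from counts assigned to genes, and RPKM, computed by the authors as CPM per kilobase. Both matched the counts. The single file of the pig 13 control from site 7b held 607 complete genes, so all counts came from the table. Exon lengths in the deposited files gave the RPKM used here. The table had 32388 rows for 31907 genes, and repeated rows were kept once.

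Genes passed filterByExpr of edgeR 4.0.16 (R 4.3.3, minimum count 10), which left 19862 with all 7 measured members. Library sizes used TMM factors. Counts were fitted with pig and treatment as terms and tested by the robust quasi-likelihood test of edgeR, whose biological coefficient of variation was 19.8%. An added interaction term asked whether the pigs responded differently. P-values were adjusted by Benjamini-Hochberg over all genes. The pig is a block because labels name the animal, and injected and control deviations correlated between 0.25 and 0.54 within a pig and -0.49 and -0.28 across pigs. Counts of any pair of biopsies of a group differed by more than sampling noise. Alternatives were DESeq2 1.42.0, its size factors in edgeR, no count filter, no block, each pig alone and each biopsy left out. The tests of injected against control sites and of the interaction were tried on counts simulated from the fitted spread, with no outlying biopsy added. The difference between the pigs was not tried in this way. The closest genes had a symbol and a mean of at least 1 CPM, on log2 CPM with a prior count of 2.

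Named genes are all members, the 3 with the smallest p of each of 15 lists, and the 5 closest to SOCS3 and to CISH. The members and lists were chosen with earlier results of these data known.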

Additional observations from a re-analysis of the deposited data

How the results depend on the processing

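SOCS3 kept a positive log2 fold change of injected over control sites under every alternative run, but its call did not hold still. It was called in pig 14 alone (2.49) and without 1 control biopsy, site 7b of pig 13, with values from 1.58 to 2.83 over the 8 fits that each left out a biopsy. Without the pig as a block (no pairing of sites within an animal) SOCS3 was at 1.78 with no call, and 6 genes were called in place of 7. Genes called between injected and control sites numbered 58 with DESeq2, 30 in pig 13 alone, 17 in pig 14 alone and 3 to 19 without 1 biopsy. CISH stayed positive and uncalled in all of them. Small members changed sign, SOCS6 (0.16) and SOCS7 (-0.0031) in pig 13 alone, SOCS1 (0.014) and SOCS5 (-0.049) in pig 14 alone, and without 1 biopsy SOCS1 ran from -0.093 to 0.049 and SOCS5 from -0.0041 to 0.18. The difference in response between the pigs had 8 genes called with no filter on low counts, 89 with DESeq2 and 0 to 313 without 1 biopsy, where SOCS3 ran from -0.97 to 2.04, CISH from -0.018 to 0.24 and SOCS1 from -0.11 to 0.24. Between the pigs themselves 1142 to 2240 genes were called without 1 biopsy, SOCS1 staying called, while SOCS3 ran from -0.67 to 0.49 and SOCS4 from -0.17 to 0.046. Of the list medians, over the genes tested with all biopsies, that of 14 STAT5 response genes ran from 0.079 to 0.18 and that of neutrophil markers from -0.77 to -0.094, and without site 7b those of fibroblast (-0.00037) and of T and NK markers (0.021) changed sign. Except where a biopsy's own value is given, the cause was not tested. The design has 2 sites per animal and treatment, so 1 site can decide a call, as site 7b did. SOCS3 had 119 or more counts in every biopsy, and the part of counting error in its spread was not tested.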
